A study of Mustela putorius furo with 10 samples.

Results

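Genes of glycogen metabolism and of the alpha-glucosidases were followed in peripheral blood mononuclear cells (PBMC) of ferrets kept in the cold. The set held 9 gene symbols, PYGL, PYGB, PYGM, GYS1, GBE1, PGM1, PGM2, MGAM and GAA, looked up through the RefSeq ferret gene name, or the name given by the study, of the transcript each probe was designed on. A total of 8 of the 9 were matched, and all 8 were measured, among 26292 genes with a log2 ratio. Of these, 9289 had a symbol, and each sequence without a name counted as a gene of its own. PGM1 was not matched by name and was not analysed here. MGAM, PGM2 and 1 of the 3 GAA sequences had their name only from the study's list of genes picked on these arrays, so that they were matched because they had been picked, and the others had theirs from RefSeq. The symbols were listed with earlier results of these arrays in view. PYGL, MGAM, GAA and PGM2 also belong to genes that the study had picked for their difference between cold and control on these same arrays, so their values are given below as a description, without a test. Only PYGB, PYGM, GYS1 and GBE1 were tested.

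The samples were PBMC of male ferrets aged 3 months, 1 animal per array. The control group of 6 ferrets lived at 22 °C and the cold group of 4 ferrets was kept at 4 °C for 1 week, caged singly in the cold and with free access to food and water in both groups. PBMC were collected from heart blood on a Ficoll density gradient, which is meant to keep lymphocytes and monocytes and to let most granulocytes and red cells pass. RNA of each ferret carried the green dye Cy3 and was hybridised together with a pool of ferret RNA from PBMC and other tissues that carried the red dye Cy5 and was common to all 10 arrays.

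Glycogen is the branched storage form of glucose, and most white blood cells that take up microbes hold some of it as fuel. It is built by glycogen synthase and the branching enzyme, and it is broken down in the cytosol by glycogen phosphorylase, which releases glucose 1-phosphate for the phosphoglucomutases to turn into glucose 6-phosphate. A separate route runs through the lysosome, where acid alpha-glucosidase frees glucose from glycogen, while maltase-glucoamylase is a membrane-bound alpha-glucosidase of the gut brush border that neutrophils carry as well.

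All values are on a log2 scale. The ratio is Cy3 over Cy5 after background correction and intensity-dependent (loess) normalisation, so that 0 is the typical ratio of genes of that brightness on the array, not equal signal in the ferret and in the pool. The second scale is the Cy3 intensity alone, quantile normalised, which makes no use of the pool. A difference of 1 on either scale is a doubling. Every probe of the 8 genes had Cy3 well above background on all 10 arrays, and none of their spots was saturated. The threshold for a gene to be measured, Cy3 above background on at least 4 arrays, therefore left no member close to it. The 10 arrays limit the precision of all values.

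Across all genes, none of 26292 differed between cold and control in the ratio at an adjusted p under 0.05 (limma, Benjamini-Hochberg), although 2268 (8.63%) had an unadjusted p under 0.01 and 6492 (24.7%) an unadjusted p under 0.05. With Cy3 alone, 742 of 26294 genes (2.82%) passed the adjusted threshold. Per array, 50.4 to 63.5% of the spots had a Cy3 signal clearly over background. In the pool channel this share was 27.0 to 54.9% for control and 40.5 to 64.0% for cold arrays, and the array medians of Cy5 were 44 to 80 and 48 to 152 intensity units. Because Cy5 brightness moved with the groups, each of the 8 genes is given in both scales, and the part of Cy5 brightness in any ratio was not tested.

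All 8 measured genes had a higher mean in cold in both scales, where 48% of all genes in the ratio and 42.9% with Cy3 alone had a higher mean in cold. As 4 of the 8 had been picked on this contrast, nothing is read from this count. The direction turned in the ratio for GAA (-0.02), PYGB (-0.21), PYGM (-0.21) and GYS1 (-0.67) when each array was centred on its median instead of the loess step, with the software's processed ratios for PYGB (-0.28), and in the deposited table for GYS1 (-0.16). With Cy3 alone, PYGB turned to -0.13 with the processed signal and GYS1 to -0.03 with the replicate number as a block, and both turned without some of the arrays, PYGB to -0.05 at the lowest and GYS1 to -0.01. MGAM, PYGL and GBE1 lay furthest from control, each near a doubling, followed by PYGM, PGM2, GAA and GYS1, with PYGB last. In the ratio, the cold arrays lay above all control arrays for PYGL, MGAM, PGM2 and GBE1, which is 4 of 8, beside 3.07% of all genes. With Cy3 alone the same held for PYGL, GAA, PGM2 and GBE1, beside 3.59% of all genes. Since 3 of the 4 genes were picked on this contrast in each case, nothing is read from these counts. The plot of log2 ratios by array shows the values gene by gene.

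**Figure D1:**
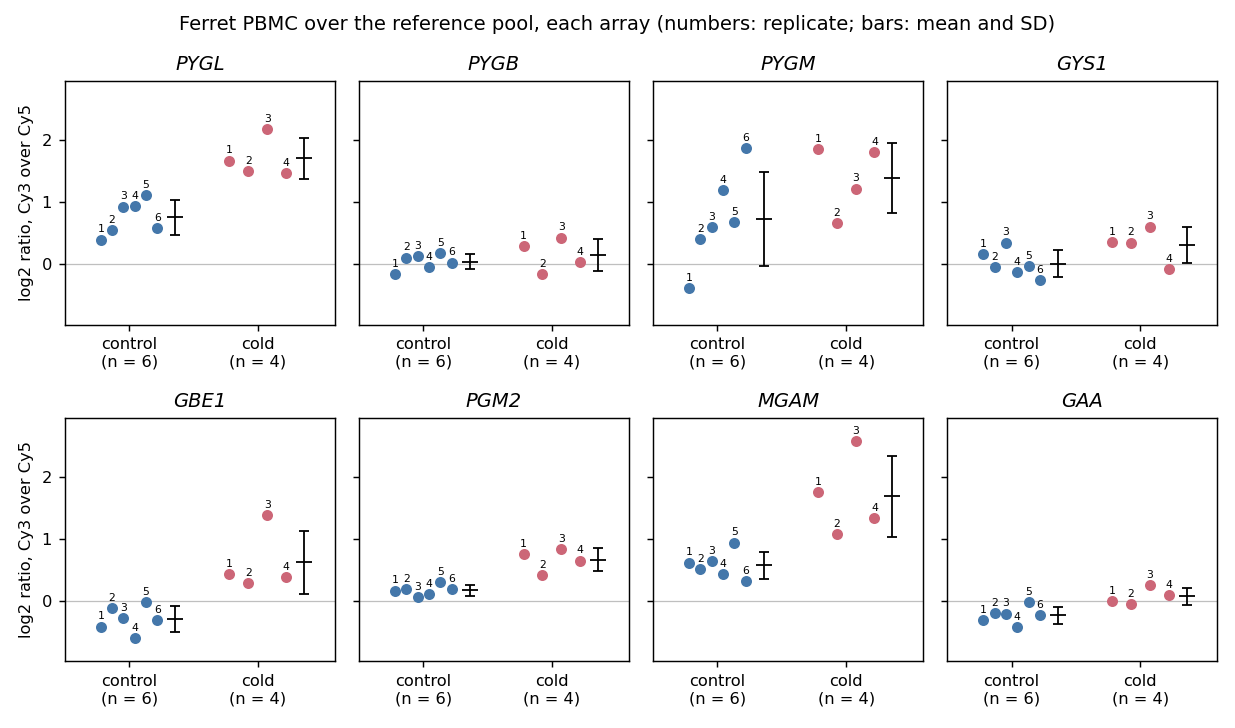
Log2 ratio of Cy3 (ferret PBMC) to Cy5 (reference pool) for the 8 measured genes on each array. The vertical axis is shared, points are arrays numbered by replicate, blue for the 6 control and red for the 4 cold ferrets, and bars give the mean and SD. The groups are apart for PYGL, GBE1, PGM2 and MGAM and share part of their range for PYGB, PYGM, GYS1 and GAA.

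The 3 glycogen phosphorylases are named for the tissue in which each prevails, liver (PYGL), brain (PYGB) and muscle (PYGM). PYGL had a log2 ratio of 1.67, 1.50, 2.18 and 1.47 in the 4 cold ferrets. In the control ferrets it ranged from 0.40 to 1.12 with a median of 0.76. All 4 cold values thus lay above the highest control value, that of control replicate 5, and cold replicate 3 was the highest. The group means differed by 0.95 (standard error 0.17), or 1.93-fold. With Cy3 alone PYGL read 12.06, 12.36, 12.48 and 11.87 in cold and 11.01 to 11.40 in control, and the groups were again apart. The Cy3 difference was 0.91 (standard error 0.13), close to that of the ratio.

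PYGB differed little. Its log2 ratio was 0.29, -0.16, 0.43 and 0.04 in cold and -0.15 to 0.18 in control, with a control median of 0.07. The lowest cold value fell below every control value and the highest lay above them all. The difference was 0.10 (standard error 0.12), with a limma adjusted p of 0.622 and p = 0.405 in an exact two-sided permutation test. With Cy3 alone it was 0.01 (standard error 0.10), with an adjusted p of 0.981 and p = 0.976 in the exact permutation test. Both differences were smaller than the spread between arrays. Cy5 was above background in 45.8% of the PYGB probe readings of control arrays and 93.8% of those of cold arrays, which limits its ratio.

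Among the control ferrets PYGM varied most of the 8 genes, while among the cold ferrets its ratio had a range of 1.18, narrower than that of MGAM at 1.49. In the control group its log2 ratio ran from -0.38 in replicate 1 over a median of 0.64 to 1.87 in replicate 6. The 4 cold ferrets had 1.85, 0.67, 1.22 and 1.81, all inside the control range. Of all genes, 99.2% had a smaller SD among the control arrays in the ratio. The Cy3 intensity spanned 10.75 to 13.76 in control and 11.95 to 13.35 in cold. The difference of 0.66 in the ratio (standard error 0.38; limma adjusted p = 0.307; exact two-sided permutation test, p = 0.167) and that of 0.59 with Cy3 alone (standard error 0.49; limma adjusted p = 0.478; exact permutation test, p = 0.329) were not larger than this spread. Leaving out 1 array gave 0.44 to 0.90 in the ratio and 0.28 to 0.90 with Cy3 alone, lowest without control replicate 1 and highest without cold replicate 2. The other settings gave -0.21 to 0.93 and 0.56 to 0.93, and the adjusted p was 0.142 or more in each of these fits.

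GYS1 encodes the glycogen synthase found in most tissues, which lengthens the chains of glycogen. Its log2 ratio was 0.36, 0.35, 0.61 and -0.08 in cold and -0.25 to 0.35 in control, with a control median of -0.03. Cold replicate 4 lay among the control ferrets, and control replicate 3 among the cold ones. The ratio differed by 0.30 (standard error 0.15), with a limma adjusted p of 0.235 and p = 0.105 in the exact two-sided permutation test. Cy3 alone gave 12.46, 12.52, 12.49 and 12.05 in cold and 12.10 to 12.48 in control. There the difference was 0.04 (standard error 0.11; limma adjusted p = 0.858; exact permutation test, p = 0.733). In the pool channel alone GYS1 had a cold less control difference of -0.20 (standard error 0.07; limma adjusted p = 0.563; exact two-sided permutation test, p = 0.0286). The GYS1 ratio stood higher in cold beside a lower mean Cy5 reading, while its Cy3 reading differed by less than the spread between arrays.

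GBE1 encodes the branching enzyme, which adds the side chains that make glycogen compact and soluble. Of the 4 tested genes it alone passed the adjusted threshold in the comparison of cold and control, with Cy3 alone. Like the other members, GBE1 was listed with earlier results of these arrays in view. Its p values are therefore not free of that choice. Its log2 ratio was 0.44, 0.29, 1.38 and 0.39 in cold. In control it ranged from -0.59 to -0.01 with a median of -0.28. Every cold ferret lay above every control ferret, and cold replicate 3 stood well above the other cold ferrets. The control mean was -0.28 ± 0.21 (SD, n = 6), the cold mean 0.63 ± 0.50 (SD, n = 4) and the difference 0.91 (standard error 0.20) or 1.88-fold. The limma p was 0.000851 and the adjusted p 0.0723, so the ratio missed the adjusted threshold. It passed without control replicate 5 (limma adjusted p = 0.0497) or without cold replicate 2 (0.0356). With median centring in place of loess the ratio differed by 0.31 (standard error 0.35; limma adjusted p = 0.499), and in the deposited table by 0.73 (adjusted p = 0.240). The exact two-sided permutation test gave p = 0.00476, the smallest that the 210 splits of 10 arrays allow.

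With Cy3 alone GBE1 rose in cold. The intensity was 11.69, 11.68, 12.40 and 11.38 in the cold ferrets and 10.42 to 10.94 in the control ferrets, with a control median of 10.61. The groups did not overlap, and the lowest cold ferret, replicate 4, was above the highest control ferret. The difference was 1.15 (standard error 0.18; 2.22-fold; limma adjusted p = 0.0334; exact permutation test, p = 0.00476), beside 1.9% of all genes that were higher in cold at that threshold. The adjusted p ranged from 0.00882 to 0.0855 over the other settings tried, and the difference from 0.95 to 1.35. The call was lost without control replicate 1 (adjusted p = 0.0678), control replicate 2 (0.0697), control replicate 4 (0.0749), cold replicate 2 (0.0531) or cold replicate 3 (0.0844). It was also lost with the software's processed Cy3 (0.0580), with no filter on dim probes (0.0541) and with the methods' t-test (0.0855). Without cold replicate 3, the difference was 0.95.

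PGM2 encodes a member of the phosphoglucomutase family that acts on the sugar phosphates released from nucleosides. It had a log2 ratio of 0.76, 0.42, 0.84 and 0.65 in cold against 0.06 to 0.31 in control, where its median was 0.18. The groups were apart, and its control SD of 0.09 was smaller than that of any other member. The difference was 0.50 (standard error 0.09). PGM2 was dim in the pool, with Cy5 above background in 16.7% of the probe readings of control arrays and 56.2% of those of cold arrays, which limits this ratio. In the deposited table it differed by 0.86. With Cy3 alone, the cold ferrets read 8.59, 8.30, 8.71 and 8.44 and the control ferrets 7.90 to 8.10, a difference of 0.50 (standard error 0.09), or 1.42-fold.

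MGAM encodes maltase-glucoamylase. Its log2 ratio in the cold ferrets was 1.75, 1.08, 2.57 and 1.34, a spread of 1.49 between the lowest and the highest. The control ferrets lay between 0.32 and 0.94 with a median of 0.57. All cold values were above all control values. The group means of the ratio differed by 1.11 (standard error 0.24). With Cy3 alone the groups overlapped. Cold replicates 1 and 4, at 9.72 and 9.79, read below control replicate 1 at 9.93, whereas cold replicates 2 and 3 read 10.31 and 10.95. The other control ferrets lay between 8.41 and 9.53. The Cy3 difference was 0.96 (standard error 0.30), or 1.94-fold. MGAM was dim in the pool, with Cy5 above background in 20.8% of the probe readings of control arrays and 56.2% of those of cold arrays, so its ratio rests on pool readings that were mostly at background.

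GAA encodes the acid alpha-glucosidase of the lysosome, the enzyme lacking in Pompe disease. Its log2 ratio was 0.00, -0.05, 0.26 and 0.10 in cold and -0.42 to -0.01 in control, with a control median of -0.21. Control replicate 5, at -0.01, lay above cold replicate 2. The difference was 0.30 (standard error 0.09), or 1.23-fold, with Cy5 above background in 62.5% of the probe readings of control arrays and 91.7% of those of cold arrays. With Cy3 alone the cold ferrets read 9.73, 9.98, 9.98 and 9.81, all above the control range of 9.32 to 9.68. The Cy3 difference was 0.39 (standard error 0.10).

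**Figure D2:**
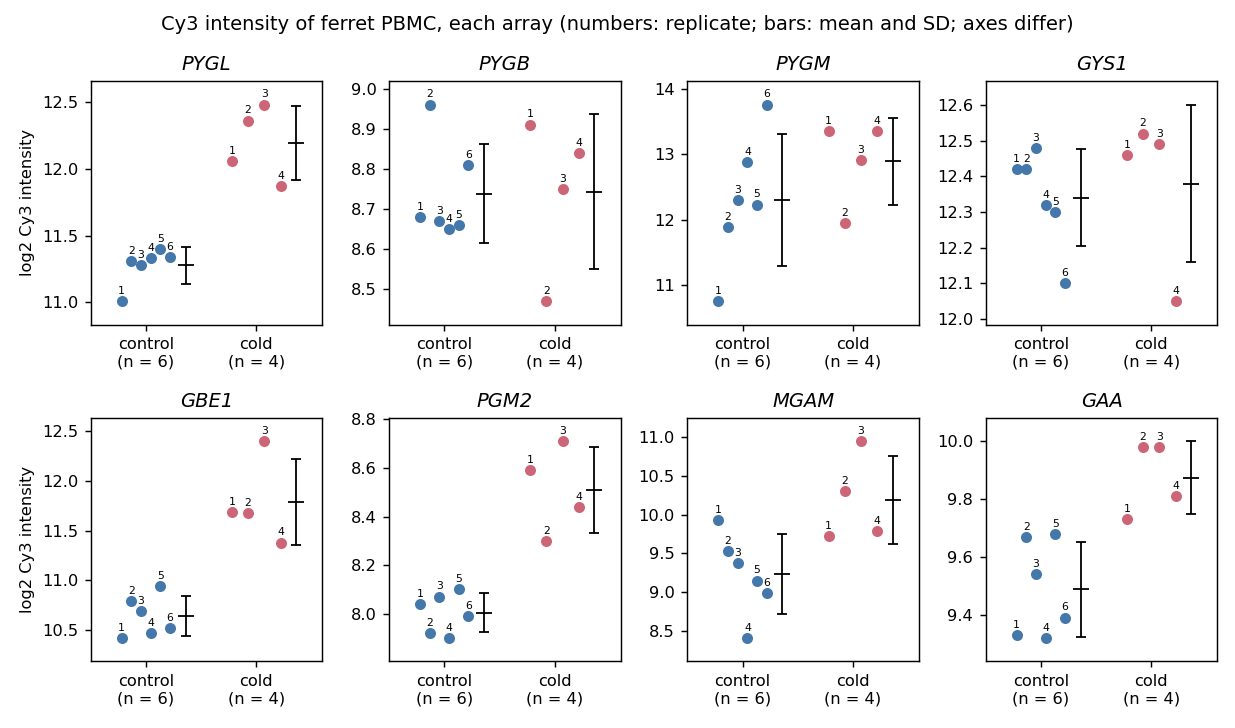
Log2 Cy3 intensity of the 8 genes on each array, quantile normalised, with control ferrets in blue, cold ferrets in red, replicate numbers beside the points, and bars for mean and SD. The vertical axes differ between genes. The groups are apart for PYGL, GBE1, PGM2 and GAA, while control replicate 1 of MGAM, at 9.93, reaches into the cold range.

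The Cy5 reading of the pool should be alike on all arrays, apart from technical differences. It differed between the groups by 0.13 or less for 7 of the 8 genes, and by -0.20 for GYS1. Cy5 alone was quantile normalised, and for MGAM and PGM2 it was mostly at background. The scaling of the arrays moved several of the ratios. With a plain median centring of each array instead of the loess step, the median difference of all genes moved to -0.43. Under that setting the differences were 0.31 for PYGL and for GBE1, 0.97 for MGAM and 0.56 for PGM2, beside the negative values given above for the other genes. Relative to the median gene, PYGL stood at 0.73, GBE1 at 0.74, GAA at 0.41, PGM2 at 0.99, MGAM at 1.39, PYGB at 0.22, PYGM at 0.21 and GYS1 at -0.24.

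**Figure D3:**
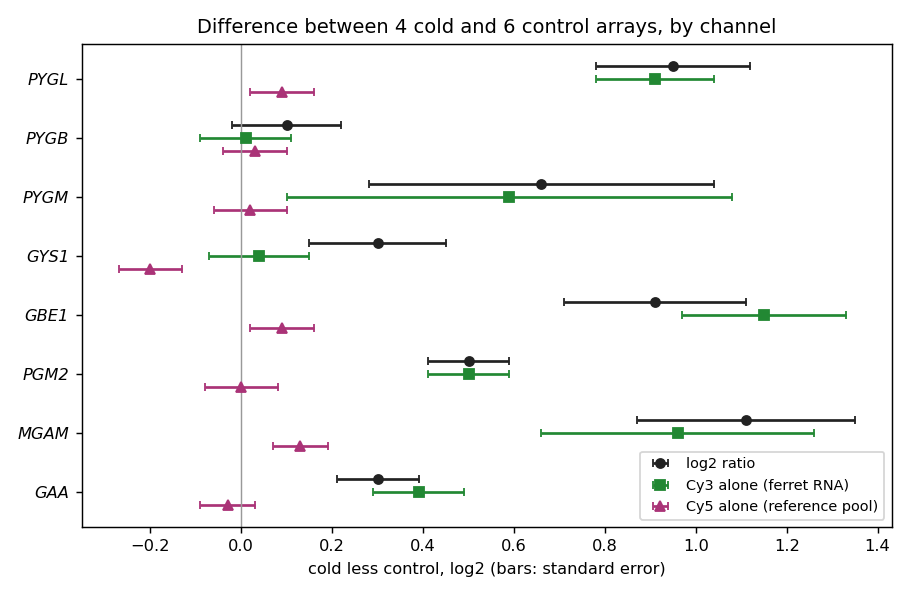
Cold less control difference on the log2 scale for each gene in the ratio (black circles), in Cy3 alone (green squares) and in Cy5 alone (purple triangles), with standard errors from limma over 6 control and 4 cold arrays. Ratio and Cy3 differ most for GYS1 (0.30 and 0.04) and GBE1 (0.91 and 1.15), and the Cy5 points stay between -0.20 and 0.13.

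Position on the slide was the batch that could be checked, since each array had a slide of its own and all were scanned on 1 day. Position 1 held 4 control and 2 cold arrays and position 2 held 2 of each. Within them, the PYGL ratio differed by 0.96 and 0.80, the MGAM ratio by 0.94 and 1.17, and the GAA ratio by 0.26 and 0.29. For GBE1 the within-position differences were 0.72 and 1.02 in the ratio and 1.14 and 1.08 with Cy3 alone, and for PGM2 they were 0.42 and 0.56 in the ratio. GYS1 differed by 0.42 and 0.10 in the ratio and, with Cy3 alone, by 0.18 and -0.12.

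Each target sequence was covered by 4 probes, and probes of 1 gene share their samples. PYGL (XM_004738765), PYGB (XM_004781236), PYGM (XM_004770132), GYS1 (XM_004767361), GBE1 (XM_004770826), PGM2 (XM_004763981) and MGAM (XM_004741983) had 1 target sequence each, and GAA had 3. The probes of a gene went the same way with Cy3 alone except for PYGB, whose probes ran from -0.07 to 0.09. The 4 PYGL probes differed between the groups by 0.72 to 1.07 in Cy3, those of GBE1 by 1.10 to 1.21, those of MGAM by 0.83 to 1.10 and those of PGM2 by 0.46 to 0.56. All 12 GAA probes were higher in cold, by 0.30 to 0.42 in Cy3. In the ratio they split by target sequence, with 0.40 to 0.47 for XM_004748755 but 0.15 to 0.37 for XM_004748753 and 0.16 to 0.36 for XM_004748754. The mean Cy3 level of these sequences was 12.02, 8.46 and 8.45 in the same order, and the GAA value averages all 12 probes. The part of brightness in this split was not tested. For GYS1 the 4 probes agreed within each scale but not between the scales, at 0.23 to 0.37 in the ratio and 0.03 to 0.06 in Cy3.

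**Figure D4:**
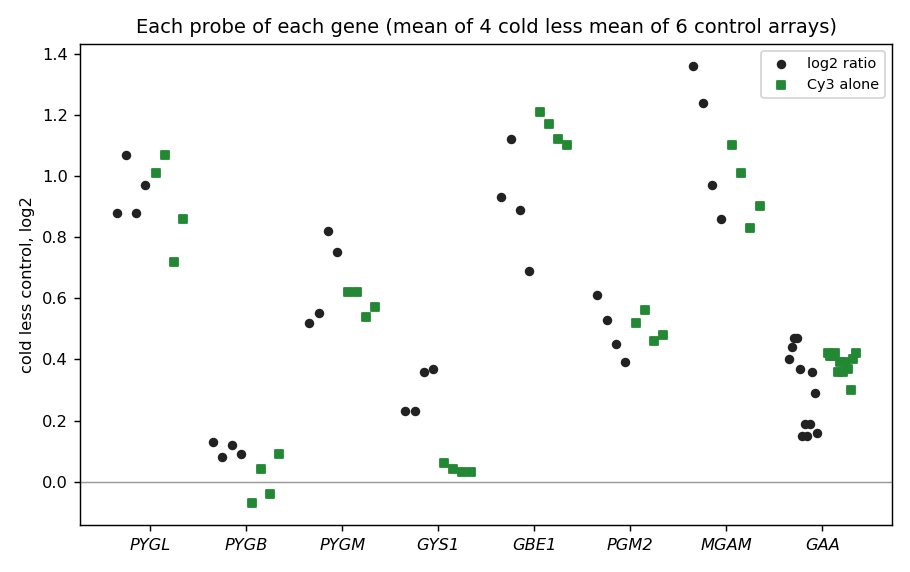
Cold less control difference of each probe, as the mean of 4 cold less the mean of 6 control arrays on the log2 scale, in the ratio (black circles) and in Cy3 alone (green squares). GAA has 12 probes and every other gene 4, and the GYS1 probes lie at 0.23 to 0.37 in the ratio but at 0.03 to 0.06 in Cy3.

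The members did not all rank the ferrets alike. Cold replicate 3 was the highest of the cold ferrets for 7 of the 8 genes in the ratio, PYGM being the exception, and for 5 with Cy3 alone. Control replicate 5 was the highest control ferret for 6 of the 8 in the ratio and for 4 with Cy3 alone. After subtraction of each group's mean, the ratios of MGAM and GBE1 correlated at r = 0.88 over the 10 arrays, those of GAA and GBE1 at 0.85 and those of PYGL and MGAM at 0.74. PYGM shared little with them, at -0.10 with MGAM and 0.17 with PYGL. These are descriptions over arrays that share their normalisation, and no test was made.

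Among the 9289 measured genes with a symbol, those whose ratios followed PYGL most closely over the 10 arrays were CUNH19orf38 (r = 0.976), IQSEC2 (0.973), MAP3K8 (0.970), CCDC93 (0.970) and THUMPD2 (0.968). With the group means subtracted, PLP2 (r = 0.957), MAP3K8 (0.952), MAPK11 (0.951), CCDC93 (0.948) and THEMIS2 (0.939) came first, so that MAP3K8 and CCDC93 stood in both lists. MGAM was followed most closely by ARG2 (r = 0.996), IER3IP1 (0.983), BMX (0.982), RBKS (0.982) and CCNY (0.981). After subtraction of the group means these were ARG2 (r = 0.987), C5AR2 (0.978), ABCC10 (0.972), CDA (0.962) and IER3IP1 (0.952). ARG2, a mitochondrial arginase, had a cold less control difference of 1.10 in the ratio, beside 1.11 for MGAM. The study had picked ARG2, too, on this contrast, and it was named here for its correlation with MGAM. Nothing is read from the closeness of these differences. For GAA, looked up after its values had been seen, the closest gene over the 10 arrays was HK3, a hexokinase (r = 0.965), and PGD, of the pentose phosphate pathway, was among the next ones (r = 0.956). For PYGM, likewise looked up afterwards, GP6, which encodes a platelet collagen receptor, was among the 5 closest (r = 0.926).

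The wider list of glycogen and glucosidase genes held 48 symbols, of which 30 were measured, 8 were on the array but under the limit for dim probes, and 10 were not matched by name. It was written with results of these arrays known. Without PYGL, MGAM, GAA and PGM2, which had been picked on this contrast, 26 measured genes remained. In the ratio, 2 of these 26 had a higher mean in cold at an unadjusted p under 0.01, GBE1 and PPP1R3D, beside 5.21% of all genes, and 1 a lower mean, MYORG, beside 3.41%. The median difference of these 26 genes was 0.08 and that of all genes -0.01. With Cy3 alone, 2 of the 26 were higher, again GBE1 and PPP1R3D, beside 5.5% of all genes, none was lower, beside 4.34%, and the median was 0.09 beside -0.04 for all genes. Over all 30 genes, the picked ones included, 6 were higher in the ratio, which became 2 with median centring and 3 with the software's processed ratios. With Cy3 alone the count of 6 became 10 with median centring, 2 with processed Cy3 and 3 without cold replicate 3. Nothing is read from the counts over 30 genes.

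PPP1R3D brings protein phosphatase 1 to glycogen. Its log2 ratio was 0.39 in control and 0.98 in cold on average, and the cold arrays lay above all control arrays. The difference was 0.59 (standard error 0.16; limma adjusted p = 0.0876) in the ratio and 0.40 (standard error 0.11; adjusted p = 0.0778) with Cy3 alone. The other measured genes of this role were PPP1R3B, at 0.21 in the ratio and 0.61 with Cy3 alone, and PPP1R3E, at -0.20 and -0.25. For PPP1R3E the cold arrays lay below all control arrays in the ratio (limma adjusted p = 0.145). MYORG, of the same enzyme family as GAA and MGAM, had a mean ratio of -1.42 in control and -2.44 in cold. That difference of -1.02 (standard error 0.32; limma adjusted p = 0.111) had no counterpart in Cy3, where MYORG differed by -0.05 (standard error 0.08; adjusted p = 0.715). Its Cy5 reading differed by 0.14 (standard error 0.06).

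By role, the other genes of synthesis, GYG2, GYS2 and UGP2, and GYS1 lay between -0.70 and 0.52 in the ratio and between -0.34 and 0.49 with Cy3 alone. The 2 measured subunits of phosphorylase kinase, the enzyme that switches phosphorylase on, differed by -0.24 (PHKB) and 0.07 (PHKG2) in the ratio but by 0.27 and -0.01 with Cy3 alone, so the direction of both turned with the scale. Of 4 measured genes listed by name as phosphoglucomutases, PGM2 apart, the 3 others were PGM2L1, PGM3 and PGM5. Whether these act on the route of glycogen was not examined. They ranged from -0.79 to 0.29 in the ratio and from -0.05 to 0.25 with Cy3 alone, PGM5 being the lowest on both scales. The synthase kinases GSK3A and GSK3B, which switch glycogen synthase off, were at 0.02 and -0.01 in the ratio and at 0.02 and 0.25 with Cy3 alone. Besides MGAM, GAA and MYORG, the 3 measured genes of their enzyme family, family 31, were GANAB, GANC and SI. These ranged from -0.05 to 0.16 in the ratio and from -0.17 to -0.03 with Cy3 alone. STBD1, which tethers glycogen to membranes, was singled out after its values had been seen, because it had the widest Cy3 difference of the list. Its Cy3 difference was 1.37 (standard error 0.48; limma adjusted p = 0.119) and its ratio differed by 0.78 (standard error 0.32; adjusted p = 0.169).

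**Figure D5:**
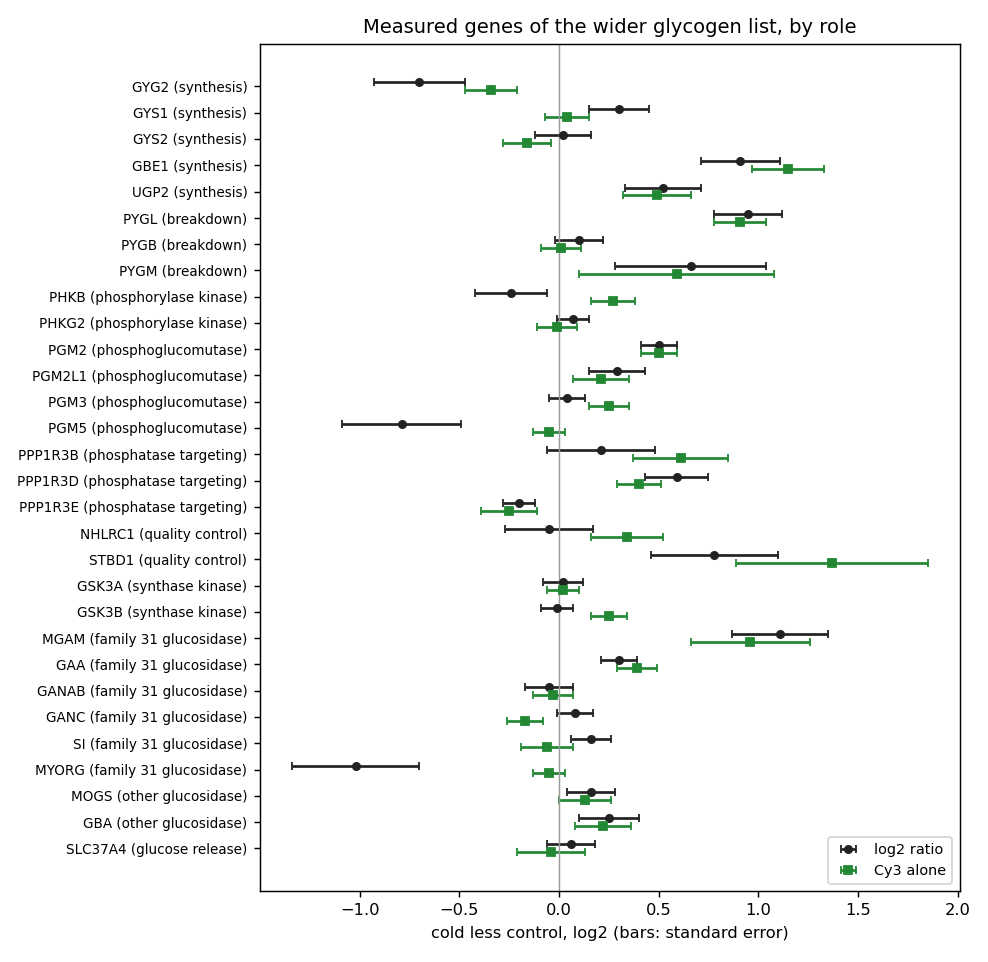
Cold less control difference of the 30 measured genes of the wider list, in order of role, on the log2 scale with standard errors from limma, for the ratio (black circles) and Cy3 alone (green squares). PYGL, GBE1 and MGAM lie near 1 on both scales, and MYORG lies at -1.02 in the ratio but at -0.05 in Cy3.

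Markers of blood cell types moved with the groups too. In a bulk sample, a change in the number of cells of a type and a change in RNA per cell cannot be told apart. Without MGAM, 10 of 17 listed neutrophil genes were measured, of which 9 had a higher mean ratio in cold, beside 48% of all genes, and 5 of them at an unadjusted p under 0.01, beside 5.21%. The mean of these 10 genes was 0.45 to 1.01 in control and 1.31 to 1.59 in cold in the ratio, and 11.87 to 12.53 and 13.01 to 13.09 with Cy3 alone. LCN2 differed by 0.67 (limma adjusted p = 0.0583), S100A9 by 1.15 (adjusted p = 0.0741) and MMP25 by 0.82 (adjusted p = 0.0741). OLFM4 and FPR2 were under the limit for dim probes, and CXCR1, MMP8, LTF, CAMP and FPR1 were not matched. The granulocyte precursor genes MPO and CEBPE were 1.41 and 1.03 higher in the ratio. The mean of 7 monocyte genes was 0.01 to 0.53 in control and 0.46 to 1.18 in cold, with 6 of the 7 higher in the ratio, beside 48% of all genes, and all 7 with Cy3 alone, beside 42.9%. VCAN, at 1.29, and CD14, at 0.66, were those at an unadjusted p under 0.01 in the ratio. CD163 was at -0.62 in the ratio but at 0.49 with Cy3 alone. The part of these markers in the differences of PYGL, GBE1, PGM2, MGAM and GAA was not tested.

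Of the 11 measured T cell genes, 10 had a lower mean ratio in cold, where 48% of all genes had a higher one. In the ratio 1 of the 11, LCK, was lower at an unadjusted p under 0.01, beside 3.41% of all genes. With Cy3 alone all 11 were lower, 7 of them at an unadjusted p under 0.01, beside 4.34% of all genes. CD3D was at 0.01 in the ratio and at -0.43 with Cy3 alone. The T cell list had a mean ratio over the genes of -0.04 to 0.28 in control and -0.85 to -0.04 in cold and a difference of -0.75 for LCK. Cold replicate 3, which read highest for most members, had the lowest T cell mean and the highest neutrophil and monocyte means in the ratio. In the ratio, the 7 B cell genes had means of -0.11 to 1.50 in control and 0.53 to 0.91 in cold. The 4 cytotoxic cell genes had means of 0.34 to 1.08 and 0.09 to 1.18. Lower in cold were 6 and 1 of them in the ratio, and 7 and 3 with Cy3 alone. Of all genes, 48% and 42.9% had a higher mean on these scales. None of the B cell or cytotoxic cell genes was lower at an unadjusted p under 0.01, beside 3.41% and 4.34% of all genes. The mean of 4 erythroid genes was 0.18 to 1.12 in control and -0.85 to -0.06 in cold, with HBM at -2.56. For platelets, 6 of 9 genes were measured, with a mean ratio of -0.03 to 1.17 in control and 0.74 to 1.70 in cold, and GP9 and TREML1 were 0.87 and 1.27 higher. In the ratio 3 of the 6 had an unadjusted p under 0.01, beside 5.21% of all genes, and with Cy3 alone 0 of the 6 had, beside 5.5%. Control replicate 1 had both the lowest platelet mean and the lowest PYGM ratio, and control replicate 6 the highest of both among the control ferrets. Within the cold group, replicate 2 was lowest in both, but replicate 3, with the highest platelet mean of 1.70, had a PYGM ratio of 1.22, below the 1.85 and 1.81 of replicates 1 and 4. The part of platelets in the spread of PYGM was not tested.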

How the data were processed

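PBMC of 6 control and 4 cold ferrets were measured on 10 two-channel Agilent arrays, with 416280 spots for 45328 target sequences. The authors deposited scanner intensities from Agilent Feature Extraction 10.7.3.1, namely the median pixel intensity of every spot and of its surroundings in both channels, without normalisation, and intensities processed by the software. A further deposited table gives 1 log2 value per sequence and array. Set against the scanner values, differences between arrays in that table equalled those of log2 Cy3 less log2 Cy5 without background subtraction. Its array medians were 7.94, 7.92, 8.06, 8.09, 8.34 and 7.87 in control and 8.78, 7.93, 8.39 and 8.13 in cold, and its constant per sequence stays unknown. No authors' test result was used.

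The normexp correction of the background used limma 3.58.1 (R 4.3.3) and an offset of 50, which narrows differences of dim probes. Ratios were normalised by loess (span 0.3, 4 iterations) and Cy3 or Cy5 alone by quantiles. Control and outlier spots were left out, and spots and then probes were averaged per gene. A probe entered when, on 4 or more arrays, the share of its spots flagged as well above background in Cy3 was 0.5 or more. RefSeq (ASM1176430v1.1) named 21104 sequences, and another 24 were named by the study. The other 24200 kept their identifier. Cold and control were compared with limma (lmFit, eBayes) and Benjamini-Hochberg adjustment over all genes, and the tested members also by exact permutation over 210 splits. The replicates were separate animals.

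Members and lists were chosen with earlier results of these data known. Named were all members, list genes at an unadjusted p under 0.01, up to 3 markers per cell type at that threshold, and the 5 genes most like PYGL and MGAM. Others were named after their values were seen, as stated, and some genes are not reported here. Alternatives covered background, scaling, the filter, the summary over probes, the methods' t-test, blocks and leaving out each array. Protein and promoter sequences were not used here.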

Additional observations from a re-analysis of the deposited data

Results flagged for a closer look

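Of 32 groups of values examined, 8 genes in 2 groups and on 2 scales, 3 held 1 ferret far from the rest of its group by Dixon's rule, which chance flags in about 1 of 20 groups. Cold replicate 3 had a GBE1 log2 ratio of 1.38, above the other cold ferrets at 0.29 to 0.44. Without it, the GBE1 ratio differed by 0.66. Control replicate 1 had a PYGL Cy3 intensity of 11.01, below the other control ferrets at 11.28 to 11.40. Cold replicate 4 had a GYS1 Cy3 intensity of 12.05, below the other cold ferrets at 12.46 to 12.52.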

How the results depend on the processing

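All settings left PYGL, GBE1, MGAM and PGM2 higher in cold on both scales. Of 312 values of the 8 genes, 281 kept their direction and met 1 further condition. For tested genes this was the same side of an unadjusted p of 0.01 in the ratio, or of an adjusted p of 0.05 with Cy3 alone. For picked genes it was a move smaller than the mean SD of the groups. The GBE1 ratio fits that passed the adjusted threshold are thus among the 281. With median centring in place of loess, PYGL differed by 0.31, GBE1 by 0.31, GAA by -0.02, PYGB by -0.21, PYGM by -0.21 and GYS1 by -0.67, the counts were 1159 genes at an unadjusted p under 0.01 and 2 higher genes of the wider list, and 81.4% of the 1159 were lower, beside 39.6% of 2268. The software's processed ratios (median of all genes -0.16) gave 1442 genes (69.6% lower), 3 higher and 2 lower list genes, and -0.28 for PYGB. The deposited table gave 1085 genes (53.6% lower), 0.73 for GBE1 (adjusted p = 0.240, limma), 0.86 for PGM2, 0.25 for PYGM and -0.16 for GYS1. Without background subtraction, 2 list genes were lower. A filter on all 10 arrays left 106 genes at an adjusted p under 0.05, and the slide position block 5. The filter, the position block and the median over probes each left 0 lower list genes. The cause of these changes was not tested.

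With Cy3 alone, the counts at an adjusted p under 0.05, 742 in the report, were 2171 under median centring and 0 with processed Cy3 (median of all genes -0.18), with no filter and with the methods' t-test, where 3020, 2773 and 1953 genes had an unadjusted p under 0.01. GBE1 then missed the threshold at 1.19 (adjusted p = 0.0580), 1.15 (0.0541) and 1.15 (0.0855). Of genes at an unadjusted p under 0.01, 44.1% were lower in the report, 70.4% with processed Cy3 and 6.86% under median centring. Processed Cy3 gave 2 higher list genes and -0.13 for PYGB, median centring 10 and 1.14 for PYGL, and the median over probes -0.01 for PYGB.

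Replicate numbers did not pair the ferrets. Deviations of same-numbered arrays correlated at -0.30 to 0.54 in the ratio, and no cold array correlated best with the control array of its own number. With the replicate block, 0 genes in the ratio and 2081 with Cy3 alone passed the adjusted threshold, 3 list genes were lower in the ratio, GYS1 was at -0.03 with Cy3 alone and GBE1 at 1.19.

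Leaving out 1 array gave 0 to 1267 adjusted calls in the ratio (469 without control replicate 5, 1267 without cold replicate 2, 12 without cold replicate 1) and 0 to 1673 with Cy3 alone, 1271 to 3380 and 1608 to 3334 unadjusted calls, 0 to 3 lower list genes in the ratio, and with Cy3 alone 3 to 7 higher and 0 to 1 lower. GBE1 differed by 0.95 to 1.29 with Cy3 alone, GYS1 by -0.01 to 0.15 and PYGB by -0.05 to 0.10. GYS1 reached 0.43 (adjusted p = 0.127, limma) in the ratio without cold replicate 4. Low Cy5 signal limits the ratios of MGAM, PGM2 and, on control arrays, PYGB.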
